A study of Homo sapiens with 12 samples.

Results

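FABP7, NES, MSI1, POU3F1, POU3F2, IRX3 and VIM, genes used as markers of neural progenitors and radial glia, were followed on the 12 arrays of a study of MEG3 loss in human embryonic stem cells (hESC). They were chosen by name, with earlier results of these data known. Every probe annotated to any of them was kept, which gave 10 probes of the 47230 on the array and 7 of its 20046 genes. POU3F1, POU3F2 and VIM each had 2 probes and the other 4 genes had 1. Among undifferentiated cells of the line NTU1 with and without MEG3, FABP7 and POU3F1 were called lower in the cells without it. The FABP7 call was lost in 2 and the POU3F1 call in 6 of the 9 fits that left out 1 array. VIM, MSI1 and IRX3 were lower on average without passing the test, NES differed by 0.01 on the log2 scale, and POU3F2 was below background. In H9, another line without MEG3 signal, POU3F1 was lower still, while FABP7 was higher than in the NTU1 cells without MEG3. H9 had only 2 arrays, and 31.4% of all genes tested were called between it and those NTU1 cells. In the embryoid body (EB), a cell aggregate in which hESC differentiate, all 7 genes were higher than on any undifferentiated array. The same held for 28.5% of all genes described there, and the EB was 1 array without a test.

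Total RNA was hybridised to Illumina HumanHT-12 version 4.0 bead arrays. Cells of the hESC line NTU1 that expressed MEG3, an imprinted long non-coding RNA, formed the MEG3-ON group (arrays 1 to 4), and NTU1 cells that had lost it formed the MEG3-OFF group (arrays 5 to 9). The labels describe neural differentiation as better for MEG3-ON and worse for MEG3-OFF NTU1 cells. H9, another hESC line, was labelled MEG3-OFF as well (arrays 1 and 2) and was left out of the study's own test of genes. The EB was a single array labelled MEG3-ON, and its day of differentiation was not given. All hESC were grown on mouse feeder cells (MEF), with no deletion, transgene or drug, and the NTU1 sublines were sorted by quantitative PCR of MEG3. How the sublines were separated was not given, so the p-values below measure only the spread between these arrays, which may be technical. The arrays of each group sat side by side on 1 chip, so position and group cannot be told apart, and the same holds for time in culture, which was not given per array.

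FABP7 encodes a fatty acid binding protein of radial glia, the elongated cells that divide to give rise to neurons and along which young neurons migrate. NES (nestin) and VIM (vimentin) encode intermediate filament proteins that are found together in neural progenitors, and VIM is also carried by fibroblasts and other mesenchymal cells. MSI1 encodes an RNA-binding protein of neural stem cells, POU3F1 and POU3F2 encode POU-domain transcription factors of the developing nervous system, and IRX3 encodes a homeodomain factor that takes part in patterning the neural tube.

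The levels below are log2 normalized signals, and a probe was called above background where its detection p-value was under 0.01. Between 16864 and 18796 probes passed this on an array, and median raw signals were 83.6 to 108. MEG3 was at 13.15 to 14.12 on MEG3-ON arrays and at 4.97 to 6.30 on MEG3-OFF arrays, where it was above background on 1 of 5, at 5.10 to 5.15 and below background in H9, and at 13.76 in the EB. All 9 pluripotency markers measured were above background on every undifferentiated array, among them POU5F1 at 12.27 to 12.86. Of the 9, 7 were over 2-fold lower in the EB than in MEG3-ON. Their levels differed between lines, with NANOG at 7.60 to 7.94 in H9, 9.69 to 10.38 in MEG3-ON and 10.51 to 11.04 in MEG3-OFF. Against MEG3-ON, 2 of the 9 were called lower in H9 and 2 higher, beside 17.1% and 12% of all genes. SOX1, an early marker of neural progenitors, was below background on all 12 arrays. PAX6, another, was above background on all 4 MEG3-ON arrays and in the EB, and on no MEG3-OFF or H9 array. Of 34 other progenitor and radial glia genes on the array, 17 were above background on all 11 undifferentiated arrays, SOX2 among them, which pluripotent cells also use. Fewer cells of a type and less RNA per cell cannot be told apart in such bulk samples.

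FABP7 and POU3F1 were the members called lower in MEG3-OFF NTU1 cells. In the limma fit of the 9 NTU1 arrays, 2 of 6 tested members passed an adjusted p of 0.05, both lower, where 1.74% of all 10775 genes tested were called lower, 1.85% higher and 3.58% in either direction. The 6 tested members were above background on all 9 arrays, so none entered the fit through 1 group. Of the 6, 5 had a negative difference and 4 were lower at an unadjusted p under 0.05, a limit that 11% of all genes passed in that direction. The median difference of the 6 was -0.49, beside 0.02 for all genes tested, of which 47.3% were lower.

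FABP7 was measured at 8.09, 7.73, 6.93 and 8.08 on MEG3-ON arrays 1 to 4 and at 6.76, 6.85, 6.25, 5.90 and 5.85 on MEG3-OFF arrays 5 to 9. All 5 MEG3-OFF arrays lay below the lowest MEG3-ON array, array 3, which was only just above MEG3-OFF arrays 5 and 6. On MEG3-OFF arrays 7, 8 and 9 FABP7 was close to background (detection p-values of 0.0039, 0.0078 and 0.0065). The group means were 7.71 ± 0.55 (SD, n = 4) and 6.32 ± 0.47 (SD, n = 5), a difference of -1.38 ± 0.27 (SE), or 2.61-fold, with a 95% interval of -1.96 to -0.81 (limma, adjusted p = 0.0145). FABP7 was the only tested member whose groups did not overlap, as happened in the lower direction for 3.69% of all genes. With no background correction the difference shrank to -0.92 and passed. The call was lost without MEG3-ON array 1 (adjusted p = 0.0575) or array 4 (0.0665).

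POU3F1, known as Oct6, is a factor of the epiblast as well as of neural and Schwann cells in the mouse. Its brighter probe (ILMN_2086981) was at 7.93, 8.41, 8.68 and 8.74 on MEG3-ON arrays 1 to 4 and at 7.78, 7.24, 7.33, 8.08 and 7.12 on MEG3-OFF arrays 5 to 9. The groups overlapped, since MEG3-OFF array 8 was above MEG3-ON array 1. The means of 8.44 ± 0.37 (SD, n = 4) and 7.51 ± 0.40 (SD, n = 5) differed by -0.93 ± 0.21 (SE), or 1.90-fold, with a 95% interval of -1.39 to -0.47 (limma, adjusted p = 0.0322). This call was lost without any 1 of MEG3-ON arrays 2, 3 and 4 or MEG3-OFF arrays 6, 7 and 9 (adjusted p = 0.0667 to 0.117), while the difference stayed between -1.10 and -0.83.

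The dimmer POU3F1 probe (ILMN_1670782) was at 7.23, 7.24, 7.71 and 7.85 on MEG3-ON arrays 1 to 4 and at 6.51, 6.40, 6.43, 7.47 and 6.46 on MEG3-OFF arrays 5 to 9. Again MEG3-OFF array 8 stood above the other 4 of its group, which lay within a narrow band below all MEG3-ON arrays. Fitted over 17744 single probes, this probe differed by -0.85 ± 0.22 (SE) and missed the threshold (limma, adjusted p = 0.0570), while the brighter probe passed (0.0369), as did FABP7 (0.0161). Without MEG3-OFF array 8 the dimmer probe passed as well (-1.05, limma, adjusted p = 0.00291). It passed in 2 of the 9 fits that left out 1 array. Of the 8 member probes in that fit 2 were called, both lower, where 1.36% of all probes were called lower.

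The bases ahead of the annotated starts of these 2 genes are shown with those of NES, which did not differ between the groups, to set the sequence beside the values. RefSeq promoter windows (GRCh38.p14) were held for 5 of the 7 members (FABP7, NES, POU3F1, POU3F2 and VIM), and the 250 bases before each start were searched. Capitals mark CCAAT, the letters of the box bound by the NF-Y complex, or ATTGG, the same letters on the other strand, and each sequence reads 5′ to 3′ along the gene's own strand.
FABP7, chr6:122779466-122779715, plus strand: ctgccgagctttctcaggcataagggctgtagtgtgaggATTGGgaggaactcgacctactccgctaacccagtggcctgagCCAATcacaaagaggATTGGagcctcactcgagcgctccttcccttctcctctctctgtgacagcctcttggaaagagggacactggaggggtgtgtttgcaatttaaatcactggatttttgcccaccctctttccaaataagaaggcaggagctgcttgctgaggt
POU3F1, chr1:38046794-38047043, minus strand: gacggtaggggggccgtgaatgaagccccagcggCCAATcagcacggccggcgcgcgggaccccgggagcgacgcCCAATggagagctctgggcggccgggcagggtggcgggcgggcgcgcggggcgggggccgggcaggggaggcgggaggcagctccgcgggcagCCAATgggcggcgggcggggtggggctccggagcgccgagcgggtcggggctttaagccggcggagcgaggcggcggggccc
NES, chr1:156677408-156677657, minus strand: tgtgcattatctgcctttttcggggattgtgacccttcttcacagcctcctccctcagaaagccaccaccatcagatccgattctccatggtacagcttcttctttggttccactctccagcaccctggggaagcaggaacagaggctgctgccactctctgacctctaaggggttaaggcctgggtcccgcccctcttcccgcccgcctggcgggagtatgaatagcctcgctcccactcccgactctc

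FABP7 held the CCAAT letters 3 times, beginning 211, 168 and 153 bases before the start, and POU3F1 also 3 times, 216, 175 and 82 bases before it. POU3F2 held them 2 times, and NES and VIM had none in this window. Of 35116 windows of the same length, 32% held at least 1 match on either strand and 9.53% held 2 or more. The POU octamer (ATGCAAAT or ATTTGCAT, in 1.63% of windows), the RBPJ core of the Notch pathway (TGGGAA or TTCCCA, 20.8%) and the TATA letters (TATAAA or TTTATA, 10.7%) were in none of the 5. G and C made up 80.8% of the POU3F1 window, 52.8% of the FABP7 window and 58.0% of the NES window. The FABP7 window lies inside the annotated span of the gene, which begins further upstream. A match describes these letters only.

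**Figure D1:**
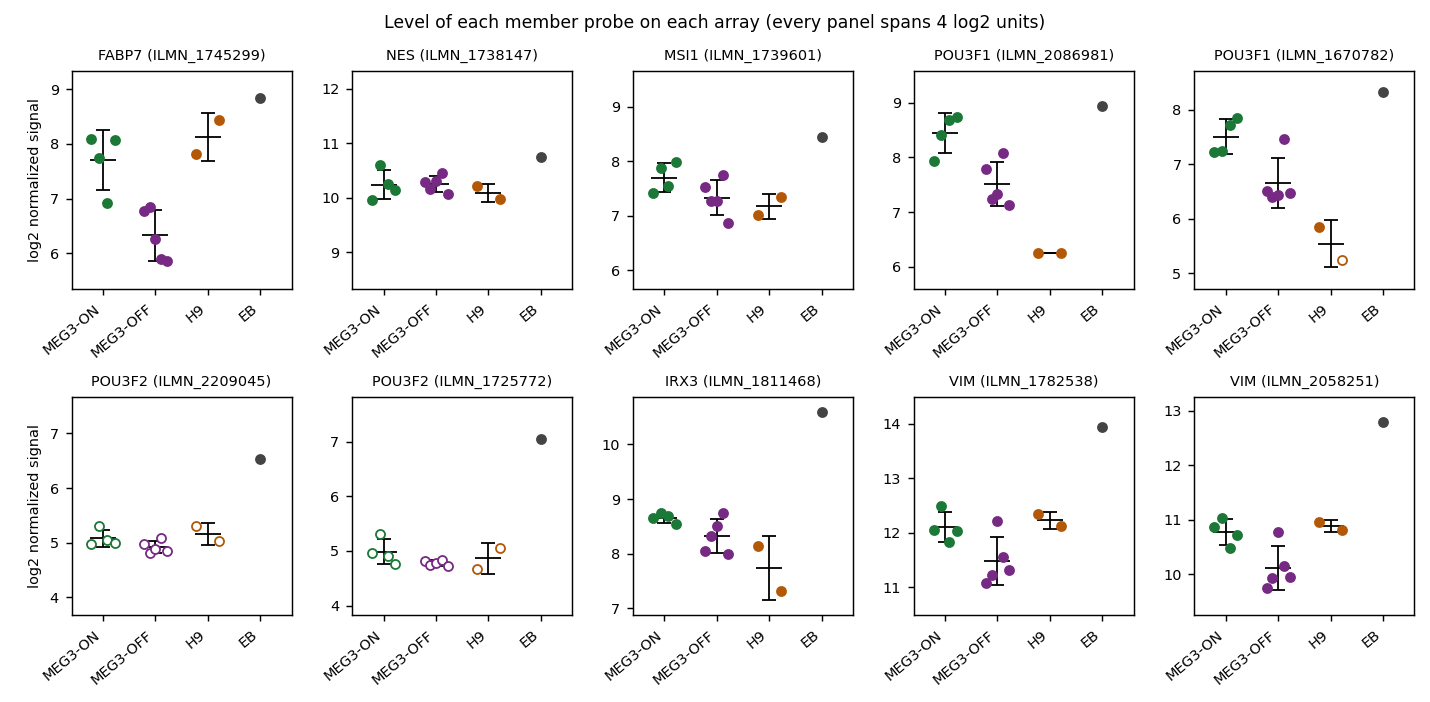
Level of each of the 10 member probes (log2 normalized signal, vertical axis) on every array by group. Points are arrays, open points are below background, and black bars give the mean and SD of groups with over 1 array. FABP7 separates MEG3-ON from MEG3-OFF, NES overlaps between them, both POU3F2 probes are open on the 11 undifferentiated arrays, and the EB point is the highest in each panel.

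VIM was lower on average in MEG3-OFF without passing the test. Its probe ILMN_1782538 was at 12.04, 12.49, 11.83 and 12.03 on MEG3-ON arrays 1 to 4 and at 11.08, 11.22, 12.21, 11.56 and 11.32 on MEG3-OFF arrays 5 to 9. All MEG3-OFF arrays but array 7 lay below every MEG3-ON array, and array 7 lay above 3 of the 4. The difference was -0.62 ± 0.21 (SE) with a 95% interval of -1.07 to -0.16 (limma, adjusted p = 0.113). Without MEG3-OFF array 7, the highest of its group, it was -0.80 and passed (limma, adjusted p = 0.0228). Of the 9 fits that left out 1 array, it passed in 1 only.

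The other VIM probe (ILMN_2058251) was at 10.88, 11.04, 10.49 and 10.72 on MEG3-ON arrays and at 9.75, 9.93, 10.78, 10.16 and 9.96 on MEG3-OFF arrays 5 to 9. The order of the 5 MEG3-OFF arrays was the same in both probes, from array 5, the lowest, to array 7, the highest. Its difference was -0.67 ± 0.19 (SE, limma over single probes, adjusted p = 0.0760), and -0.83 without array 7 (0.0125). This probe too passed in 1 only of the 9 fits that left out 1 array. Of 8 tested markers of fibroblasts and mesenchyme, which also carry VIM, 1 was called lower (ACTA2, -0.98, adjusted p = 0.0202) and none higher. Their summed linear signal, over the 16 on the array, was 6769 to 11630 in MEG3-ON and 6663 to 8610 in MEG3-OFF, and COL3A1, FN1, POSTN, DCN, SNAI2 and ZEB1 were below background on every undifferentiated array. Their part in the VIM values was not tested.

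NES, the filament partner of VIM, was at 9.97, 10.61, 10.25 and 10.15 on MEG3-ON arrays and at 10.29, 10.16, 10.31, 10.45 and 10.08 on MEG3-OFF arrays 5 to 9. Every MEG3-OFF value lay within the MEG3-ON range. The difference was 0.01 with a 95% interval of -0.28 to 0.31 (limma, adjusted p = 0.963).

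MSI1 was at 7.41, 7.87, 7.54 and 7.98 on MEG3-ON arrays and at 7.52, 7.27, 7.26, 7.74 and 6.87 on MEG3-OFF arrays 5 to 9. The groups overlapped, with MEG3-OFF arrays 6, 7 and 9 below the lowest MEG3-ON value. The difference of -0.37 ± 0.17 (SE) had a 95% interval of -0.75 to 0.01 (limma, adjusted p = 0.234).

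IRX3 was at 8.64, 8.74, 8.69 and 8.53 on MEG3-ON arrays, with an SD of 0.09 the smallest spread of any tested member within either NTU1 group, and at 8.04, 8.32, 8.50, 8.74 and 7.99 on MEG3-OFF arrays 5 to 9. All MEG3-OFF arrays but array 8 lay below the lowest MEG3-ON array, and array 8 was level with the highest. The difference was -0.33 ± 0.15 (SE), with a 95% interval of -0.66 to -0.01 (limma, adjusted p = 0.217).

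POU3F2, known as Brn2 and used with other factors to turn mouse fibroblasts into neurons, could not be tested. On the 11 undifferentiated arrays its probe ILMN_2209045 read 4.81 to 5.30 and its probe ILMN_1725772 read 4.67 to 5.31, with no detection p-value under 0.0675. No level can be given for it in MEG3-ON, MEG3-OFF or H9 cells, only that it was not above background.

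The members did not rank the 5 MEG3-OFF arrays alike. By the tested probes, array 9 was the lowest for FABP7, NES, MSI1, POU3F1 and IRX3, and array 8 was the highest for NES, MSI1, POU3F1 and IRX3. The dimmer POU3F1 probe also had array 8 highest, but array 6 lowest. FABP7 broke that order, with array 8 at 5.90 close to the lowest, and VIM had array 5 lowest and array 7 highest. The arrays on which FABP7 and POU3F1 were closest to their MEG3-ON levels were therefore different ones, 6 for FABP7 and 8 for POU3F1.

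H9, which also lacked MEG3 signal, differed from MEG3-OFF NTU1 cells in FABP7, POU3F1 and VIM. The 2 comparisons of H9, with MEG3-ON and with MEG3-OFF, share the 2 H9 arrays and come from 1 limma fit of the 11 undifferentiated arrays, so they are given side by side. Against MEG3-ON 2 of 6 members were called, both lower, where 17.1% of 11583 genes were called lower, 12% higher and 29.1% in either direction. Against MEG3-OFF 3 of 6 were called, 1 lower and 2 higher, where 18.2% of genes were called lower, 13.2% higher and 31.4% in either direction. The 2 lines thus differed at many genes, and the members' counts stand against that background.

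FABP7 was at 7.81 and 8.45 on the H9 arrays, both above all 5 MEG3-OFF arrays and inside or above the MEG3-ON range. H9 exceeded MEG3-OFF NTU1 by 1.81 ± 0.34 (SE), or 3.50-fold, with a 95% interval of 1.08 to 2.53 (limma, adjusted p = 0.00277). Against MEG3-ON the difference was 0.42, with an interval of -0.33 to 1.17 (adjusted p = 0.377). In order of mean level FABP7 stood highest in the EB, then H9, MEG3-ON and MEG3-OFF, and the neighbours H9 and MEG3-ON did not differ beyond their spread.

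POU3F1 ran the other way in H9. Its brighter probe was at 6.24 on both H9 arrays, below every NTU1 array, and the difference was -2.20 ± 0.27 (SE), or 4.59-fold, against MEG3-ON (95% interval -2.77 to -1.62, limma, adjusted p = 0.000172) and -1.27 ± 0.26 (SE), or 2.41-fold, against MEG3-OFF (-1.82 to -0.71, adjusted p = 0.00406). In H9 the brighter probe was close to background (detection p-values of 0.0013 and 0.0026). The dimmer probe read 5.85 and 5.24 there, above background on the first array only. With no background correction the differences of the brighter probe shrank to -1.55 against MEG3-ON and -0.82 against MEG3-OFF and stayed called. The order of means was EB, MEG3-ON, MEG3-OFF and H9, and the 3 undifferentiated groups each passed the test against the next.

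IRX3 was at 8.15 and 7.32 on the H9 arrays, below all 4 MEG3-ON arrays. The difference was -0.92 ± 0.23 (SE), or 1.89-fold, with a 95% interval of -1.42 to -0.41 (limma, adjusted p = 0.0115), and it rested on H9 array 2, without which it was -0.50 (adjusted p = 0.219). Against MEG3-OFF the difference of -0.58 did not pass (interval -1.07 to -0.10, adjusted p = 0.0635).

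VIM was at 12.33 and 12.12 on the H9 arrays by its brighter probe, within the MEG3-ON range, the lower of them under MEG3-OFF array 7 alone. H9 exceeded MEG3-OFF by 0.75 ± 0.26 (SE), or 1.68-fold (95% interval 0.20 to 1.30, limma, adjusted p = 0.0400), a call lost in 7 of the 11 fits that left out 1 array (MEG3-ON 1, MEG3-OFF 5, 6, 8 and 9, H9 1 and 2, adjusted p = 0.0522 to 0.181). Against MEG3-ON the difference was 0.13 (interval -0.44 to 0.70, adjusted p = 0.742). The summed fibroblast and mesenchyme signal of H9, 7997 to 8225, lay within the range of both NTU1 groups.

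NES and MSI1 passed in neither H9 comparison. By mean level the order was EB, MEG3-OFF, MEG3-ON and H9 for NES, EB, MEG3-ON, MEG3-OFF and H9 for MSI1 and IRX3, and EB, H9, MEG3-ON and MEG3-OFF for VIM, and no undifferentiated neighbours in these orders passed the test. NES was at 10.21 and 9.97 in H9, inside the MEG3-ON range, with differences of -0.15 from MEG3-ON (interval -0.54 to 0.23) and -0.17 from MEG3-OFF (-0.54 to 0.20). MSI1 was at 7.01 and 7.34, below all MEG3-ON arrays, with differences of -0.53 from MEG3-ON (interval -1.01 to -0.04, limma, adjusted p = 0.0927) and -0.16 from MEG3-OFF (-0.63 to 0.31). Without H9 array 2, 0 of the 6 members were called against MEG3-OFF (FABP7 1.49, adjusted p = 0.0666; POU3F1 -1.27, 0.0573), and the calls over all genes fell from 3642 to 500.

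**Figure D2:**
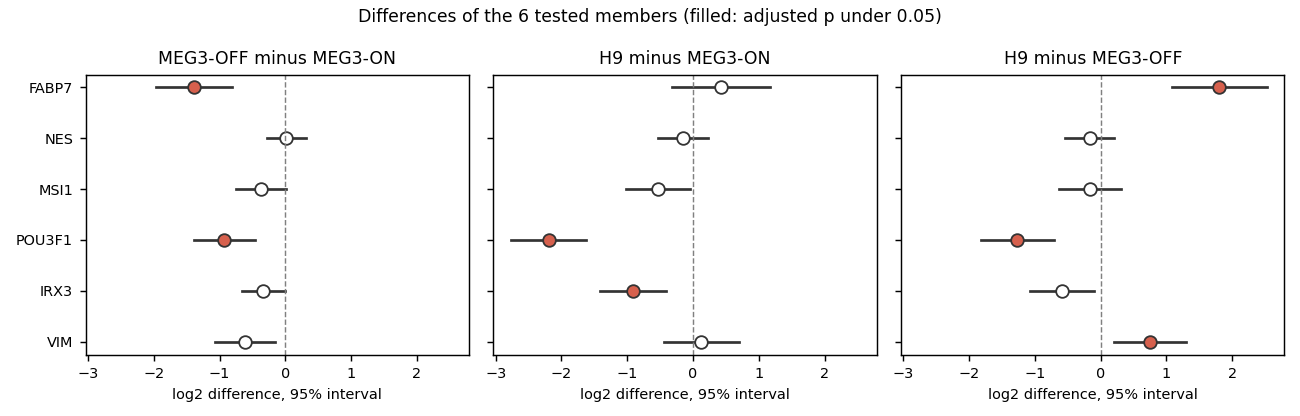
Differences of the 6 tested members in the 3 comparisons of undifferentiated cells (log2, horizontal axis, with 95% intervals), filled where limma's adjusted p was under 0.05. FABP7 is at -1.38 in MEG3-OFF against MEG3-ON and at 1.81 in H9 against MEG3-OFF, while POU3F1 is below 0 in all 3.

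All 7 members were higher in the EB than on each of the 11 undifferentiated arrays, as were 28.5% of the 11763 genes described there. With 1 EB array there was no replicate and no test. By measured values 4 of 7 members were over 2-fold above the MEG3-ON mean, where 9.09% of all genes were and 7.75% were over 2-fold lower, and 3 of 7 with POU3F2 taken at its lower bound. The median difference was 1.13, or 0.75 with that bound, beside 0.04 for all genes.

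IRX3 was at 10.59 in the EB, 3.84-fold above the MEG3-ON mean. VIM was at 13.94 by its brighter probe and at 12.79 by the other, 3.58-fold and 4.02-fold above MEG3-ON. These 2 genes had the largest differences among the members with a measured level on both sides.

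FABP7 was at 8.84, 2.19-fold above the MEG3-ON mean and 0.39 above the higher H9 array. MSI1 was at 8.45 (1.68-fold), NES at 10.74 (1.41-fold) and POU3F1 at 8.94 (1.41-fold) and 8.32 (1.75-fold) by its 2 probes. NES and POU3F1 exceeded the highest undifferentiated array only narrowly, by 0.13 and 0.21 on the log2 scale for the brighter probes.

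POU3F2 was above background in the EB alone, at 6.53 by probe ILMN_2209045 and at 7.06 by probe ILMN_1725772. Set against the background limit of the MEG3-ON arrays, it was at least 1.62-fold and at least 2.33-fold higher there. This bound takes, for each MEG3-ON array, the dimmest signal among probes above background.

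Markers of other cell types differed in the EB too. Of 13 fibroblast and mesenchyme markers 9 were over 2-fold higher than in MEG3-ON and none lower, with a summed signal of 15820, above every other array. Endoderm markers were over 2-fold higher for 4 of 5 counted and lower for 1, and mesoderm markers higher for 2 of 2 counted, with 8 of each on the array. SOX17, GATA4 and GATA6 of endoderm were below background in the EB and not counted. The same held for TBXT, MIXL1, EOMES, MESP1, TBX6 and KDR of mesoderm. Neural crest markers were higher for 3 of 7 and lower for 1, and neuron markers higher for 5 of 10 and lower for 1. FOXA2, TTR, APOA1, PAX7, NGFR and SNAP25 entered these counts through the EB alone. So did COL3A1, POSTN, LUM, TWIST1 and SNAI2 of the fibroblast and mesenchyme list, all but POSTN among those over 2-fold higher. No bound was taken for any of these genes. Epithelial markers went the other way, with 4 of 7 over 2-fold lower, 1 higher and a median difference of -1.93. Their part in the levels of VIM and the other members was not tested.

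**Figure D3:**
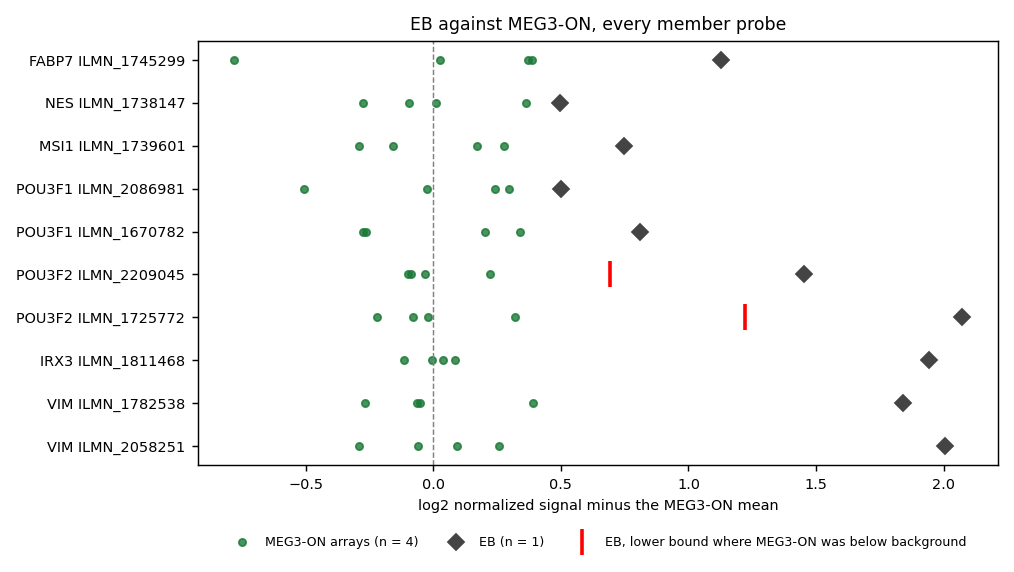
Level of each member probe in the EB (diamonds) and on the 4 MEG3-ON arrays (green points), as log2 normalized signal minus the MEG3-ON mean. Red ticks give the lower bound for POU3F2, 0.69 and 1.22, and every diamond lies to the right of all green points of its row.

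Other genes of neural progenitors and radial glia set the members in context. A list of 36 such genes had 34 on the array and 24 tested in NTU1 cells. It was written from the genes' known roles, but with earlier results of these data known, so its counts are no independent support. Of the 24, 7 were called lower in MEG3-OFF, none higher, and 10 were lower at an unadjusted p under 0.05. PAX6 and LIX1, among the 7, entered the test only through the 4 MEG3-ON arrays, where they are high. These counts stand beside 1.74% and 11% of all genes, and the list's median difference was -0.30. Leaving out 1 array gave 2 to 8 calls, with 4 without MEG3-ON array 1 or 2 and 2 without MEG3-ON array 4, and the list's summed linear signal was 21560 to 23690 in MEG3-ON and 14780 to 20270 in MEG3-OFF.

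Among these 7 genes, 4 encode transcription factors (LHX2, PAX6, SOX11 and SOX3). LHX2, a LIM-homeodomain factor of the forebrain and eye field, had the largest fitted difference, -2.70 ± 0.44 (SE, limma, adjusted p = 0.00544). It was above background on 2 of 5 MEG3-OFF arrays, so this value rests partly on signals below background, and no bound was taken. PAX6, a determinant of neuroectoderm in human cells, was below background on all MEG3-OFF arrays and at least 1.76-fold lower there (adjusted p = 0.00268), and LIX1, also below background there, was at least 1.31-fold lower (0.00975). SOX11 (-1.20, adjusted p = 0.00293) and SOX3 (-0.81, 0.0114), SOX factors of neural precursors, CDH2, the N-cadherin of neuroepithelium (-1.14, 0.0104), and TNC, the matrix protein tenascin-C (-0.79, 0.0354), made up the rest.

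The tested genes with the largest differences that did not pass were OTX2 (-0.65, adjusted p = 0.0679), GPM6B (-0.56, 0.174), HES5 (0.40, 0.573) and SOX9 (-0.39, 0.263). HES5, a target of Notch, had a mean of 7.84 ± 0.88 (SD, n = 4) in MEG3-ON and 8.24 ± 0.68 (SD, n = 5) in MEG3-OFF. Beside this list, FABP7 ranked with the larger differences and NES with the smallest.

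In H9 the same list had 13 of 25 tested genes lower and 2 higher than MEG3-ON, beside 17.1% and 12% of all genes. PAX6, LIX1 and EMX2, among the 13, were above background on MEG3-ON arrays only and entered the test through them. Against MEG3-OFF it had 4 lower and 4 higher, beside 18.2% and 13.2%, so near the background in both directions. LHX2 and PAX6 were both below background on the 2 H9 arrays. In the EB 16 of 29 were over 2-fold higher than MEG3-ON, beside 9.09% of all genes, and 1 was lower, with a median difference of 1.30. NR2F1, DACH1, PLAGL1 and NR2E1, among the 29, entered that count through the EB alone, and no bound was taken for them. LHX2 read 13.69 and PAX6 11.80 in the EB.

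Of the members' close relatives, 16 paralogs and filament partners, 8 were tested in NTU1 cells and 0 passed (limma), also 0 at an unadjusted p under 0.05. The filament gene PRPH had the largest difference (-0.66 ± 0.41 SE, adjusted p = 0.354), followed by FABP3 (0.25, 0.242), IRX5 (-0.20, 0.790) and INA (-0.19, 0.452). MSI2, the paralog of MSI1, differed by 0.12. POU3F3, POU3F4, IRX4, IRX6, GFAP and DES were below background on all 12 arrays, so among the POU3F genes on these arrays POU3F1 was the one measured in undifferentiated cells.

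**Figure D4:**
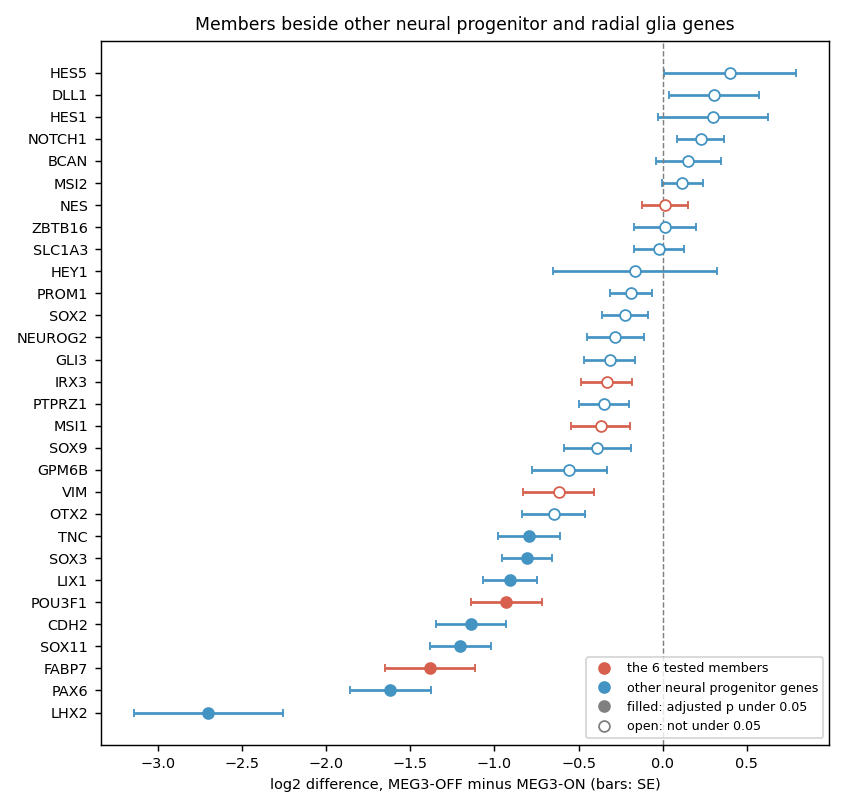
Differences between MEG3-OFF and MEG3-ON (log2, horizontal axis, bars SE) of the 6 tested members (red) and the 24 other tested genes of neural progenitors and radial glia (blue), filled where limma's adjusted p was under 0.05. LHX2 lies lowest at -2.70, FABP7 is at -1.38 and NES at 0.01.

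The other cell type lists are given beside the 1.74% of all genes called lower and 1.85% called higher in MEG3-OFF against MEG3-ON. Of 9 tested neuron markers 1 was called lower (MAP2), of 9 pluripotency markers 1 was higher (NANOG, 0.77 ± 0.16 SE, adjusted p = 0.0204), of 5 neural crest markers 1 was higher (SOX8), and of 7 epithelial, 2 endoderm and 1 mesoderm markers none was called (limma). MAP2 was above background on all 4 MEG3-ON arrays and on no MEG3-OFF array, so it entered the test through MEG3-ON alone. At an unadjusted p under 0.05, 3 neuron markers were lower, 3 pluripotency markers higher, 2 neural crest markers higher, and 2 epithelial markers higher and 1 lower.

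For each tested member, the genes with the most similar levels over the 11 undifferentiated arrays were listed by Pearson's r among 9309 other genes above background on all 11. This is a description with no test, and the 11 points share the split between lines and groups. FABP7 was most like VPS45 (r = 0.98), HMGN5 (0.97) and HAUS1 (0.96), and POU3F1 most like CELSR3 (0.98), ELMO2 (0.98) and FBLN1 (0.97). IRX3 was nearest to MAPK8IP1, VARS2 and ACTN3 (0.95, 0.94 and 0.94), MSI1 to FGF11, ENAH and DCAF8 (0.92 each), and NES to IPO4, ERMARD and BCAP31 (0.92, 0.92 and 0.88). VIM had the lowest values, with GPATCH2 at 0.87 and SCHIP1 and PCCA at 0.85. No member was among the 3 genes nearest to another.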

How the data were processed

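The table deposited by the authors holds a raw bead intensity and a detection p-value per probe and array. A second deposited table holds an intensity on a linear scale (array medians 99.0 to 99.1), which the authors log transformed and quantile normalized in Partek, and was used as an alternative after log2. Probe names came from the platform annotation (30113 probes with 1 symbol, 8 with several, 17109 with none). The files give no coordinates; promoter windows are RefSeq's on GRCh38.p14, which is not the older RefSeq build that the study's methods name for the array content.

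In R 4.3.3, limma 3.58.1 (neqc, offset 16) corrected background from the detection p-values, quantile normalized the 12 arrays and gave log2 values. Each gene took its brightest probe, as in the study. NTU1 groups were compared with lmFit and eBayes over the 10775 genes above background on at least 4 of 9 arrays, H9 in a fit of 11 arrays on 11583 genes above background on at least 2, with Benjamini-Hochberg adjustment over all genes. Values are mean ± SD and differences ± SE. The scripts were tested on simulated data. A probe below background on all arrays of a group has only a bound there. Where some arrays of a group were below background, as for LHX2 in MEG3-OFF, the fitted difference is given without a bound and its size is uncertain. The number of arrays limits the precision. No 2 arrays held identical values, and undifferentiated arrays correlated at 0.94 or more.

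The members and gene lists were chosen with earlier results of these data known. All members were named, as were, of the progenitor list and relatives, those called and the 4 with the largest difference among the rest, and the 3 genes most like each tested member. Figures were drawn with matplotlib 3.10.9 in Python 3.11.15.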

Additional observations from a re-analysis of the deposited data

Results flagged for a closer look

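POU3F1 read 7.47 on MEG3-OFF array 8 by its dimmer probe (ILMN_1670782), far above the other 4 arrays of the group, with a gap to the nearest of them of 0.895 of the group's whole range. The brighter probe also had this array highest, at 8.08, by a smaller margin. About 1 in 20 groups passes the limit used for flagging by chance, and 20 groups of 4 or 5 arrays were examined. How often a gap as large as this one arises by chance was not worked out.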

How the results depend on the processing

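The 2 members called lower in MEG3-OFF than in MEG3-ON became 1 with no filter on dim probes and 0 with the methods' t-test (Welch) after Benjamini-Hochberg adjustment, and 0 to 2 when each array was left out in turn. FABP7 (-1.38) then had an adjusted p of 0.154 by that t-test, and -1.64 to -1.26 with an array left out. POU3F1 (-0.93) had adjusted p = 0.0742 with no filter and 0.165 by the t-test, and -1.10 to -0.83 with an array left out. VIM passed at an unadjusted p of 0.0394 by the t-test with over 1.5-fold. The 2 member probes called became 0 with no filter and 0 to 3 with an array left out. The 7 other progenitor genes became 0 by the t-test after adjustment and 2 to 8 with an array left out, and the 386 calls over all genes became 32 and 108 to 997. No filter adds genes to the adjustment. The cause of the other changes was not tested.

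Against MEG3-ON, 1 to 2 members were called in H9 with an array left out. POU3F1 stayed called in each of them (-2.37 to -2.10) and under every other setting, and IRX3 ran from -1.33 to -0.50. Against MEG3-OFF, 0 to 3 were called, with FABP7 at 1.49 to 2.12, POU3F1 at -1.36 to -1.13 and VIM at 0.64 to 0.93. VIM (0.75) missed the threshold with no filter (adjusted p = 0.0782). With offset 50, no background correction and the authors' table, the differences of FABP7 and POU3F1 shrank and their calls were unchanged. FABP7 was -1.09, -0.92 and -0.92 in MEG3-OFF against MEG3-ON and 1.45, 1.24 and 1.24 in H9 against MEG3-OFF, and POU3F1 in H9 was -1.80, -1.55 and -1.55 against MEG3-ON and -0.99, -0.82 and -0.82 against MEG3-OFF. IRX3 passed against MEG3-OFF with a trended and robust fit (-0.58, adjusted p = 0.0461), and without MEG3-OFF array 5 or 9 or H9 array 1 (adjusted p = 0.0146 to 0.0447).

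H9 and MEG3-ON share the replicate numbers 1 and 2, which the labels do not link. Arrays with the same number did not deviate together (r = -0.19 and -0.08 over 11583 genes). The replicate number was then used as a block in a fit of the MEG3-ON and H9 arrays only. The same 2 members were called, POU3F1 at -1.93 and IRX3 at -0.96. Calls over all genes were 1563, beside 3375 in the fit without the block, which also held the MEG3-OFF arrays. The lower number therefore cannot be put down to the block alone.

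In the EB, 4 members over 2-fold became 2 with no background correction and 2 with the authors' normalized table, and 3 to 4 with a MEG3-ON array left out. POU3F2 moved from 1.45 to 0.90 with offset 50, 0.74 with no background correction and 0.75 in the authors' table, and IRX3 to 1.79 in the last pair. No called value changed sign in any fit. Levels near background, as those of POU3F2, of FABP7 in MEG3-OFF and of POU3F1 in H9, are compressed by the offset. The size of their differences therefore depends on that setting.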
